A study of Mus musculus with 6 samples.

Results

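The clustered protocadherin genes were taken as all named rows of the array whose symbol places them in the alpha, beta or gamma protocadherin cluster, and 58 of 24010 named genes met this rule: 14 in the alpha cluster, 22 in the beta cluster and 22 in the gamma cluster. No measured value entered the choice of single members, but the family was picked out with earlier results of these data in view, so its changes are given as a description. RNA was measured on whole-transcript arrays in dorsal pancreatic buds of mouse embryos at stage E11.5, cultured for 24 h in pools of 10 buds. There were 3 groups of 2 arrays: controls with 0.1% DMSO, buds with 500 nM I-BET151 and buds with 100 nM JQ1. Strain and sex are not given in the labels, and DMSO is named for the control group only. I-BET151 and JQ1 occupy the acetyl-lysine pockets of BET bromodomain proteins, which otherwise bind marked chromatin and help RNA polymerase move into genes. Values given for arrays are RMA-normalized intensities on a linear scale, and changes are differences of log2 intensity. Arrays are named by group and replicate, as in CTRL 1 or JQ1 2. Whether replicate pools differed in litter or day is not stated, so every p-value reflects only how much these particular pools differed, which may be technical.

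Clustered protocadherins are adhesion receptors of the cadherin superfamily, known best from the nervous system, where each neuron uses a small set of them as a surface identity that lets its own branches recognise and avoid one another. The genes lie in tandem on one chromosome, and each has its own first exon, which encodes the whole extracellular part, with a promoter of its own. In the alpha and gamma clusters this variable exon is spliced to a shared set of constant exons that encode a common cytoplasmic end, whereas beta genes are single exons with no shared part. Promoters are chosen through DNA looping by the insulator protein CTCF and the cohesin ring, and silent promoters carry DNA methylation. The C-type genes at the end of the alpha and gamma clusters are regulated differently from the other members, and the gamma cluster interleaves A-type and B-type genes.

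The shared exons bear on what a row of the array can show. In RefSeq's table for GRCm38.p6, all 14 alpha gene models overlapped each other and 13 of them ended within 10 bases of one position. All 22 gamma models likewise overlapped each other, and 21 ended within 10 bases of one position. None of the 22 beta models overlapped another member. Of the gamma genes, 21 are listed as protein coding, and Pcdhgb8 is listed as a transcribed pseudogene. The probes behind each row are not given in the sources used here. No pair of the 58 rows held the same values on all 6 arrays, so no row was a copy of another, but how far probes in the constant exons entered several rows was not tested. Members of the alpha or the gamma cluster may therefore not be independent measurements, and members of any cluster are not replicates of a treatment.

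The gamma cluster stood higher in treated buds and the other clusters were centred near 0. All 22 gamma rows had a positive log2 change under I-BET151, with a median of 0.42, and 21 of 22 under JQ1, with a median of 0.30 and Pcdhgc5 at 0. The beta cluster had medians of 0.00 and 0.00, with 11 and 10 of 22 rows above 0. The alpha cluster had medians of 0.12 and 0.08, with 8 of 14 rows above 0 under each inhibitor. Over all 24010 genes the medians were 0.00 and 0.02, and 52.5% and 54.2% of genes had a change above 0.

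None of these changes passed the test across all genes. In limma with Benjamini-Hochberg adjustment over 24010 genes, no member was called at an adjusted p under 0.05 under I-BET151 or under JQ1, where 1.13% and 3.8% of all genes were called. Of all genes, 0.262% rose and 0.87% fell under I-BET151, and with JQ1 1.13% rose and 2.67% fell. The smallest adjusted p of a member was 0.0843 under I-BET151 and 0.101 under JQ1. For the mean of both inhibitors against control, 4.92% of all genes were called (1.59% rose and 3.33% fell) and again no member, with a smallest adjusted p of 0.071. At an unadjusted p under 0.05, 12 of 58 members were higher and 0 lower under I-BET151, and 7 were higher and 0 lower under JQ1. Of all genes, 8.84% and 10.4% were higher at that level, and 10% and 11.2% lower. Of these members 11 and 5 belonged to the gamma cluster.

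The call of 0 members depended on which genes shared the fit. With the genes below the median intensity left out, limma called 3 of 27 members under I-BET151 and 4 of 27 under JQ1. These were Pcdhga5, Pcdhga8 and Pcdhga10 under I-BET151, and Pcdhga5, Pcdhga7, Pcdhga10 and Pcdhb6 under JQ1, all with positive changes. In the same fits 11.8% and 19.7% of all 12005 genes kept were called in either direction, beside 11.1% and 14.8% of the members. Rises alone, the direction of every member called here, numbered 595 and 1043 of the 12005 genes. With CTRL 1 left out as well, which leaves 1 control array, the JQ1 changes of Pcdha3 and Pcdhb8 were -0.82 and -0.56. That of Pcdhga5 was 1.57 in the same fit. Without any 1 of the 6 arrays and with all genes in the fit, no member and no other gene was called.

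**Figure D1:**
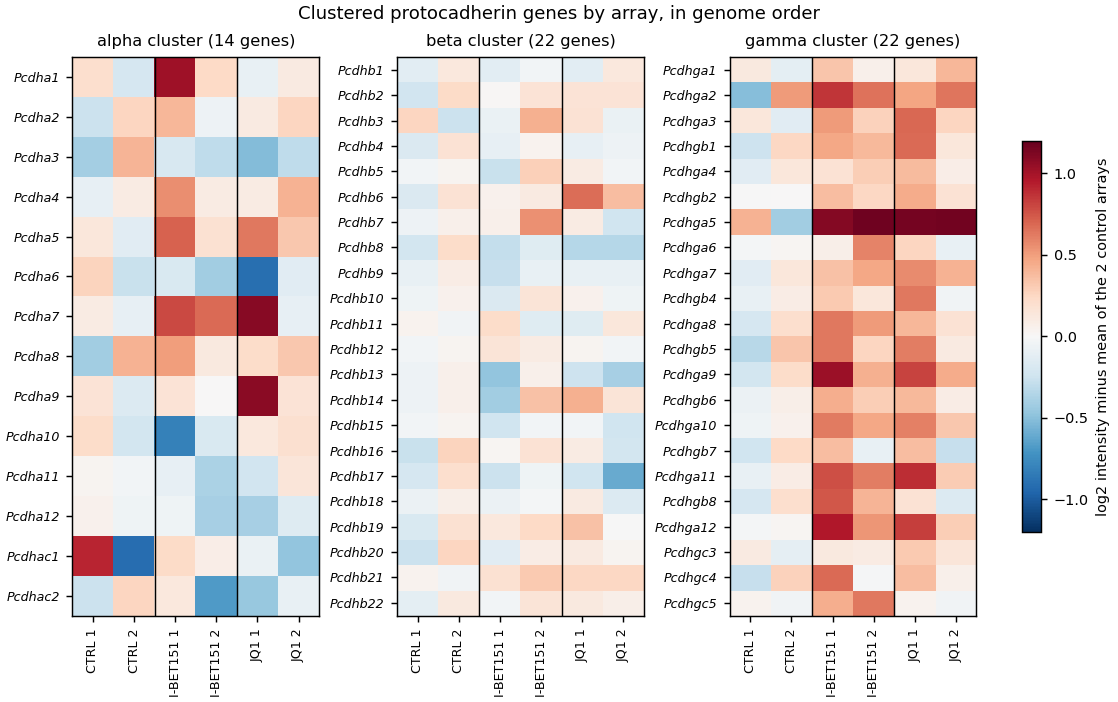
Each tile is the log2 intensity of 1 gene on 1 array minus the mean of its 2 control arrays, with genes in genome order within the alpha, beta and gamma clusters and black lines between the groups. The gamma rows are mostly red on the 4 treated arrays, palest on JQ1 2, while alpha and beta rows show reds and blues on treated and control arrays alike.

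The gamma A genes, whose variable exons encode the A-type extracellular domains, had the higher medians within the cluster, at 0.55 under I-BET151 and 0.48 under JQ1 over 12 genes. Pcdhga5 had the largest change of all 58 members. It lay at 71 and 40 on the control arrays, at 114 and 120 with I-BET151, and at 118 and 119 with JQ1. All 4 treated arrays were above both controls and close to each other, and the spread came from the controls. Its mean went from 55.5 ± 21.9 to 117 ± 4.24 and 118.5 ± 0.707 (SD, n = 2), 2.19-fold and 2.22-fold higher. The log2 changes were 1.13 ± 0.27 (SE) under I-BET151 and 1.15 ± 0.27 under JQ1, with limma adjusted p of 0.137 and 0.101. Their size depended on the control array: the I-BET151 change was 1.55 without CTRL 1 and 0.72 without CTRL 2.

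Pcdhga9 followed for the mean of both inhibitors. It was at 130 and 176 in controls, 309 and 203 with I-BET151, and 266 and 206 with JQ1. All 4 treated arrays were above both controls, but the I-BET151 pair spanned more than the control pair did. The log2 changes were 0.73 ± 0.28 and 0.63 ± 0.28, with limma adjusted p of 0.261 and 0.282. These values rest on the same 2 control arrays for both inhibitors, as do all the paired values that follow.

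The next genes were chosen after their values were seen, because the cluster is described as a whole. Pcdhga10 was at 193 and 207 in controls, then 307 and 275 with I-BET151, then 304 and 250 with JQ1. Pcdhga12 was at 76 and 79 in controls, 151 and 112 with I-BET151, and 138 and 95 with JQ1. In these 2 genes the control arrays lay close together and each treated array was above them, with replicate 1 of each inhibitor the higher. Pcdhga11 was at 54 and 61, then 98 and 88, then 106 and 71, in the same order of groups. Pcdhga7 was at 306 and 370, then 429 and 465, then 499 and 449. Both showed all treated arrays above both controls, and for Pcdhga7 the log2 changes were 0.41 ± 0.12 and 0.49 ± 0.12, among the more precise of the cluster.

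Of the other A-type genes, Pcdhga3 separated fully and the rest under 1 inhibitor. Pcdhga2 lay at 64 and 130 in controls, so its I-BET151 values of 165 and 143 were above both but its JQ1 values of 127 and 142 were not. Pcdhga8 was at 74 and 98, then 132 and 121 under I-BET151, and at 112 and 96 under JQ1, where 1 array fell between the controls. Pcdhga3 was at 234 and 195, then 304 and 258, then 344 and 255, with treated arrays above both controls throughout. Pcdhga1 separated with JQ1, and Pcdhga4 and Pcdhga6 with I-BET151. Pcdhga1 was at 335 and 285, then 389 and 322, then 340 and 407. Pcdhga4 was at 108 and 130, then 134 and 145, then 154 and 125. Pcdhga6 was at 102 and 106, then 109 and 157, then 124 and 98, so that JQ1 arrays stood on either side of the controls.

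**Figure D2:**
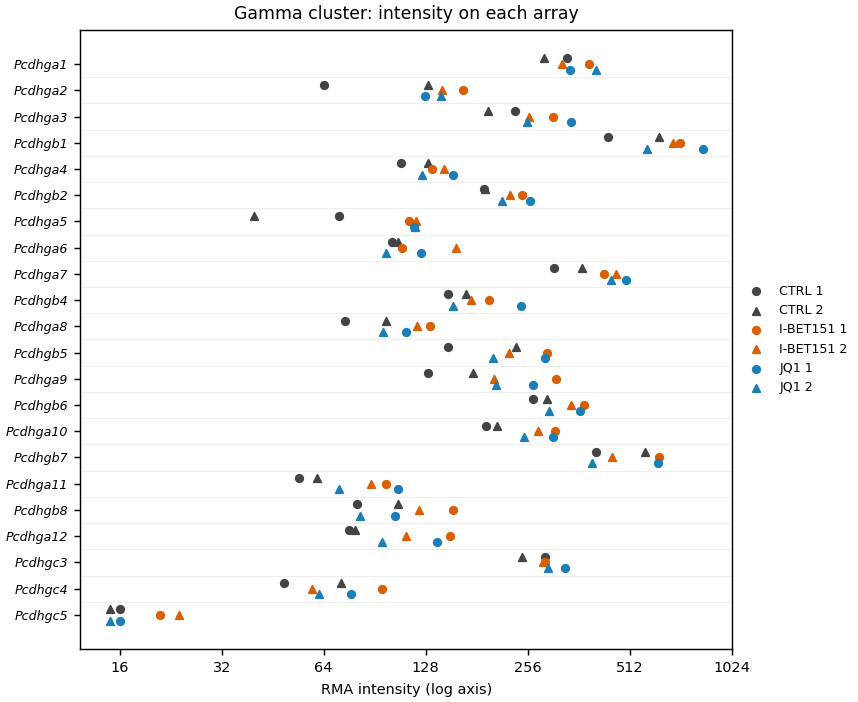
RMA intensity (horizontal log axis) of each of the 22 gamma genes, in genome order from top to bottom, on each array; colours are the groups, and circles and triangles are replicates 1 and 2. Pcdhga5 shows 4 treated values from 114 to 120 above its 2 control values, while for Pcdhgb7 the 3 groups overlap.

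The 7 gamma B genes had medians of 0.37 under I-BET151 and 0.30 under JQ1. Pcdhgb2 was the most even, at 190 and 191 in controls, 246 and 227 with I-BET151, and 259 and 215 with JQ1, all treated arrays being above the controls. Pcdhgb6 was at 266 and 292, then 376 and 343, then 366 and 296, again without overlap although JQ1 2 exceeded the higher control by little. Pcdhgb1 was at 441 and 622, then 722 and 686 under I-BET151. Under JQ1 it was at 840 and 575, which placed the second array between the controls.

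The remaining B-type genes overlapped with controls under at least 1 inhibitor. Pcdhgb4 was at 149 and 168, then 197 and 174, then 245 and 154. Pcdhgb5 was at 149 and 237, then 291 and 225, then 288 and 202. In both, 1 JQ1 array lay above the controls and 1 between them. Pcdhgb7 was at 407 and 568, then 623 and 453, then 621 and 397, with JQ1 arrays on either side of the controls, and had the smallest change of the B genes under I-BET151 (0.14 ± 0.30). Pcdhgb8, the pseudogene, differed between the inhibitors in the array values: 80 and 106 in controls, 154 and 122 under I-BET151, but 104 and 82 under JQ1.

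The 5 C-type genes showed no common pattern. In the gamma cluster, Pcdhgc3 was at 287 and 246 in controls, 288 and 284 with I-BET151, and 330 and 293 with JQ1. Its I-BET151 arrays overlapped with the controls and its log2 change there, 0.11 ± 0.11, was the smallest of the gamma cluster, whereas its JQ1 arrays were above both controls. Pcdhgc4 was at 49 and 72, then 95 and 59, then 77 and 62, and overlapped under both inhibitors. Pcdhgc5 was dim, at 16 and 15 in controls, 21 and 24 with I-BET151, and 16 and 15 with JQ1. Its I-BET151 change of 0.54 ± 0.09 had the smallest adjusted p of any member in that comparison (0.0843), while its JQ1 change was 0.00 ± 0.09. In the alpha cluster, Pcdhac1 had the widest controls of the family on the log2 scale, at 50 and 14, with 31 and 28 with I-BET151, and 25 and 19 with JQ1. Pcdhac2 was at 16 and 23, then 21 and 12, then 14 and 18.

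The gamma shift was uneven across single arrays. On I-BET151 1, all 22 gamma rows were above both controls, on I-BET151 2 17, on JQ1 1 19 and on JQ1 2 12, with 2 rows on JQ1 2 below both controls. Of all genes, 34.6% to 36.5% were above both controls on these arrays. Both I-BET151 arrays lay above both controls for 17 of 22 gamma rows and both JQ1 arrays for 11, against 21.5% and 23.9% of all genes. All 4 treated arrays did so for 9 gamma rows, against 14.4% of all genes. No gamma row had both arrays of an inhibitor below both controls, against 20.7% and 21% of all genes.

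Gamma rows also differed together between replicates of one group. Under JQ1, 19 of 22 gamma rows were higher on replicate 1, with a median gap of 0.31 on the log2 scale, close to the median JQ1 change of 0.30. Under I-BET151 17 of 22 were higher on replicate 1 (median gap 0.16). In controls 17 of 22 were higher on replicate 2 (median of replicate 1 minus replicate 2, -0.17). All 7 gamma B rows followed these directions in each group. Over all genes, replicate 1 was the higher for 42.9% of control, 43.3% of I-BET151 and 46.2% of JQ1 comparisons, with a median gap of 0. In these medians gaps of opposite sign cancel. Regardless of sign, the median control gap of the gamma rows was 0.27, close to the median JQ1 change of 0.30 and below the I-BET151 change of 0.42. Over all genes the median control gap regardless of sign was 0.11. The 22 rows share arrays, and their genes share constant exons, so 22 rows with one sign are not 22 separate observations of a treatment.

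The gamma median kept its sign without any 1 array but its size did not hold. Under JQ1 it was 0.16 without JQ1 1, with 17 of 22 rows above 0, and 0.46 without JQ1 2. It was 0.19 without CTRL 1 and 0.43 without CTRL 2. Under I-BET151 it ran from 0.31 without CTRL 1 to 0.57 without CTRL 2. The I-BET151 change exceeded the gap within the control pair and within the I-BET151 pair for 13 of 22 gamma rows, and for JQ1 the same held for 10 of 22. The control gap was larger than the change for 8 rows under I-BET151 and 9 under JQ1. These counts were not taken over all genes.

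**Figure D3:**
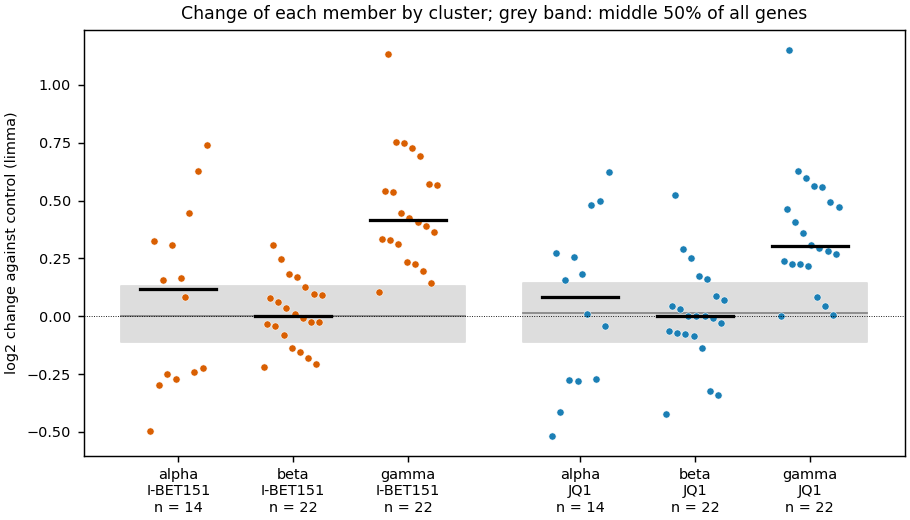
Points are the limma log2 changes of single members against control (vertical axis) by cluster and inhibitor, black bars their medians, and the grey band the middle 50% of all 24010 genes around their median. The gamma medians of 0.42 and 0.30 lie above the band, and those of the alpha and beta clusters lie within it.

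The beta genes, whose products have no shared cytoplasmic end, were spread around 0 under both inhibitors. Their log2 changes ran from -0.22 to 0.31 under I-BET151 and from -0.42 to 0.52 under JQ1. Pcdhb6 had the largest positive value for the mean of both inhibitors, and it was at 70 and 89 in controls, 82 and 85 with I-BET151, and 126 and 102 with JQ1. The difference came from JQ1 alone, where both arrays were above both controls (log2 change 0.52 ± 0.16, limma adjusted p = 0.16). Pcdhb21 was dim and even, at 19 and 18, then 21 and 23, then 22 and 22, with log2 changes of 0.25 ± 0.07 and 0.25 ± 0.07.

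Lower values among the beta genes were found for Pcdhb17 and Pcdhb8. Pcdhb17 was at 91 and 121 in controls, 88 and 101 with I-BET151, and 89 and 69 with JQ1. Pcdhb8 was at 60 and 81, then 57 and 63, then 55 and 55. In both genes the JQ1 arrays were below both controls and the I-BET151 arrays overlapped with them. Over the cluster, 2 beta rows had both I-BET151 arrays above and 0 below both controls, and under JQ1 3 were above and 3 below. Of all genes, 21.5% and 23.9% were above and 20.7% and 21% below in the same way. Besides the genes already given, the rows that separated were Pcdhb12 (21 and 22 in controls, 24 and 23 with I-BET151), Pcdhb14 (42 and 46 in controls, 59 and 49 with JQ1) and Pcdhb13 (24 and 26 in controls, 21 and 19 with JQ1). They were picked out after their values were seen. The largest beta value under I-BET151 belonged to Pcdhb7, at 34 and 37 in controls and 37 and 52 with I-BET151, where 1 treated array equalled a control.

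Between replicates the beta rows also differed together. Of 22 beta rows, 19 were higher on CTRL 2, 20 on I-BET151 2 and 15 on JQ1 1, with 4 equal on the JQ1 arrays. The median gaps were 0.15, 0.17 and 0.12 in size, larger than the median treatment change of the cluster. Gamma rows were likewise mostly higher on CTRL 2 and JQ1 1, but on I-BET151 1 rather than I-BET151 2.

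Most alpha rows were dim, and the cluster had the largest errors of the 3. Of 14 alpha rows, 13 had a mean intensity below the median over all genes, which was 55.8, 7 were in the lowest 25% of genes, and 5 reached 10 or less on at least 1 array, where 1 unit of rounding is a large step. The median SE of a log2 change was 0.29 for alpha, 0.16 for beta and 0.21 for gamma rows, against 0.10 over all genes. The SE did not simply follow brightness, since beta rows, 17 of 22 of them below the median intensity, had a smaller median SE than gamma rows, with 1 of 22. Brightness also differs with the probes of a row, so it is no comparison of transcript levels between genes. Pcdha5 was at 29 and 24 in controls, 43 and 30 with I-BET151, and 41 and 33 with JQ1, the 1 alpha row with all treated arrays above both controls. Pcdha7 was at 8 and 7, then 13 and 12, then 16 and 7, near the floor of the array.

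The 2 largest negative alpha changes for the mean of both inhibitors were those of Pcdha3 and Pcdha6. Pcdha3 was at 55 and 97 in controls, 64 and 59 with I-BET151, and 51 and 59 with JQ1. Pcdha6 was at 45 and 31, then 33 and 28, then 20 and 34. Both rows overlapped with their controls under each inhibitor. The other alpha members not named so far, Pcdha1, Pcdha2, Pcdha4, Pcdha8, Pcdha9, Pcdha10, Pcdha11 and Pcdha12, had log2 changes from -0.49 (Pcdha10) to 0.63 (Pcdha1) under I-BET151 and from -0.28 (Pcdha12) to 0.62 (Pcdha9) under JQ1. Of these, Pcdha1 was above both controls on the I-BET151 arrays (33 and 25, then 58 and 34), Pcdha11 was below them there (24 and 23, then 22 and 18), and Pcdha12 was below them with JQ1 (15 and 14, then 11 and 13). The other 5 overlapped with the controls under each inhibitor.

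The contrast between gamma and the other clusters was also seen among brighter rows. Of the 6 alpha and beta rows at or above the median intensity, the median log2 change was -0.09 under I-BET151 and -0.14 under JQ1. For the 21 gamma rows at or above it, the medians were 0.41 and 0.31. All 6 alpha and beta rows were higher on CTRL 2, with a median control gap of 0.42 in size, larger than their median changes. The 21 gamma rows had a median control gap of 0.27 in size. The difference between clusters was described and not tested, since members of a cluster share arrays and are not replicates.

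JQ1 and I-BET151 differed in dose, so their values are set side by side and do not compare the compounds. In the direct contrast of the 2 treatments, limma called no gene among 24010, with 799 genes (3.33%) higher and 811 (3.38%) lower at an unadjusted p under 0.05. Among members, 1 was higher and 2 were lower under JQ1 than under I-BET151 at that level. These were Pcdhb6 (0.44, 95% interval 0.03 to 0.86), Pcdhgc5 (-0.54, interval -0.77 to -0.30) and Pcdhgb8 (-0.57, interval -1.12 to -0.02), with limma adjusted p of 0.718 to 0.741. For Pcdhga5 the difference was 0.02 with an interval of -0.70 to 0.73, which leaves room for a large difference in either direction.

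Genes beside and within the cluster region had a median near 0, with single genes away from it. By gene order in RefSeq, the 12 protein-coding genes that lie among the clusters or are the 5 nearest on each side had medians of -0.01 and -0.03. Taf7 and Slc25a2 lie between the beta and gamma clusters. Taf7, a general transcription factor subunit, was at 98 and 99 in controls, 114 and 127 with I-BET151, and 128 and 117 with JQ1, and was not called (log2 changes 0.29 and 0.31, limma adjusted p = 0.179 and 0.126). Slc25a2 was dim, at 14 and 15, then 13 and 15, then 12 and 12, with a log2 change of -0.27 under JQ1. Hdac3, on the gamma side, had log2 changes of 0.03 and 0.11. Arap3, further out on that side, fell under JQ1 (-0.53 ± 0.07, limma adjusted p = 0.0356) and stood at -0.35 under I-BET151.

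Genes that control the clusters had changes centred near 0. Of 23 listed regulators, covering CTCF, cohesin with its loaders and release factors, DNA methyltransferases and chromatin repressors, 22 were measured and 0 were called under either inhibitor, with medians of 0.00 and 0.02. At an unadjusted p under 0.05, 2 were higher and 0 lower under I-BET151, and 2 were higher and 3 lower under JQ1. Ctcf was at 1413 and 1406 in controls, 1465 and 1338 with I-BET151, and 1425 and 1439 with JQ1. The cohesin subunit gene Rad21 had log2 changes of -0.05 and -0.13, Smchd1, a chromatin repressor known to act on these clusters, 0.06 and 0.06, and Dnmt3b, which methylates their promoters, -0.08 and -0.03. The smallest p values of the list in either comparison belonged to Mau2, a cohesin loader subunit (0.09 and 0.28), and Dnmt3a (-0.12 and -0.23).

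Signalling partners and related adhesion genes gave few calls under either inhibitor. Of 22 partners, proteases and signalling genes known to act with protocadherins, 19 were measured and 1 rose, under JQ1. This was Prkca, which encodes protein kinase C alpha, at 243 and 259 in controls, 348 and 361 with I-BET151, and 338 and 341 with JQ1 (log2 change 0.44 ± 0.06, limma adjusted p = 0.0402). For the mean of both inhibitors 2 partners rose and 1 fell. Of all genes, 1.13% were called under I-BET151, 3.8% under JQ1 and 4.92% for the mean. The 12 non-clustered protocadherins, which have no shared exons, had medians of -0.11 and -0.13, and 0 were called under either inhibitor. At an unadjusted p under 0.05, 0 were higher and 3 lower under I-BET151, and 1 was higher and 4 lower under JQ1. Pcdh10 was at 109 and 122, then 80 and 82, then 87 and 77, and fell for the mean of both inhibitors (limma adjusted p = 0.0458). Pcdh19 stood at 0.08 and 0.29. Of 31 measured genes among other cadherins, including Fat, Dachsous and Celsr genes, 2 rose with I-BET151, while JQ1 gave 2 rises and 1 fall. Cdh24 rose under both (0.60 and 0.78), as did Celsr1, a planar polarity cadherin (0.52 and 0.52), while the endothelial cadherin gene Cdh5 fell under JQ1 (-0.46).

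**Figure D4:**
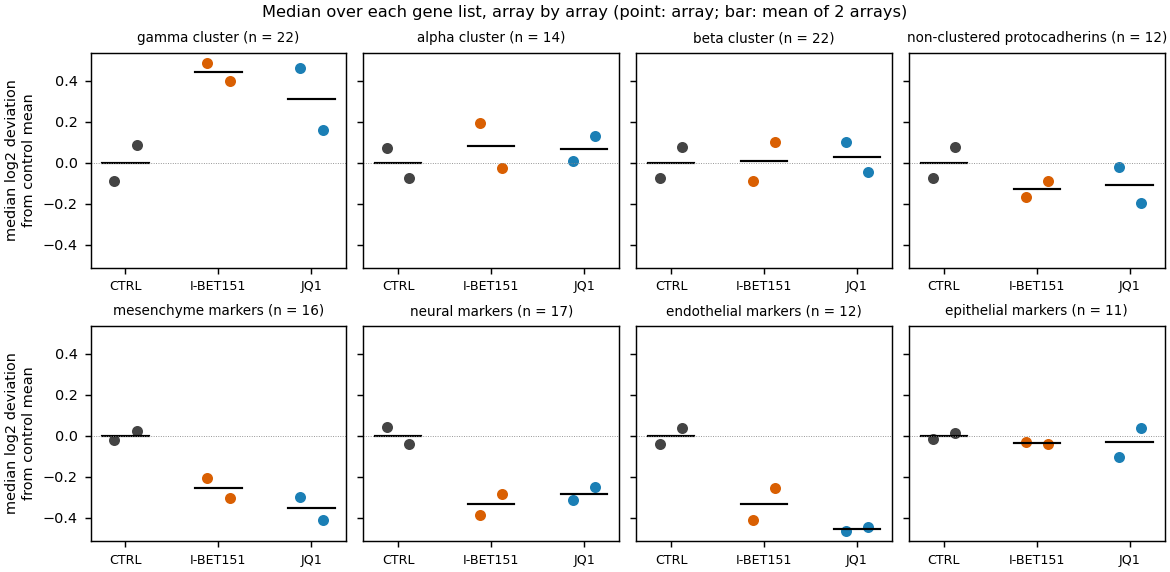
For each list, points give the median over its genes of log2 intensity minus the control mean on each array (vertical axis), and bars the mean of the 2 arrays of a group. The gamma cluster lies at 0.49 and 0.40 on the I-BET151 arrays and at 0.46 and 0.16 on the JQ1 arrays, while mesenchyme, neural and endothelial markers lie below their controls.

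The medians of the neural, mesenchyme and endothelial markers lay below their controls in the buds where the gamma median lay above. In a whole bud, a change in the number of cells of a type and a change in RNA per cell cannot be told apart. Of 17 measured neural markers, 14 had a negative and 3 a positive change under each inhibitor. Stmn2 and Ednrb fell under I-BET151, while these and Fabp7 and Gap43 fell under JQ1. For the mean of both inhibitors 1 neural marker rose and 4 fell. The summed intensity of the neural list was 4477 to 4693 in controls, 3239 to 3380 with I-BET151, and 3133 to 3268 with JQ1. For 16 mesenchyme markers the sums were 17094 to 17527, 15103 to 15330 and 14845 to 14890, and 2 fell under I-BET151 and 4 under JQ1, among them Postn and Dcn under both. For 12 endothelial markers they were 6544 to 6717, 4802 to 5159 and 4608 to 4631, with 2 and 5 falls. Eng and Tek fell under both inhibitors, and Emcn, Pecam1 and Cdh5 were called with JQ1 only; the difference between inhibitors was not called for any gene. The summed gamma intensity was 3781 to 4394 in controls, 5006 to 5654 with I-BET151, and 4604 to 5778 with JQ1.

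Epithelial and macrophage lists lay nearer to their controls. The 11 epithelial markers measured had medians of 0.01 and -0.03 with sums of 8588 to 8881, 8602 to 8648 and 8018 to 8619, and 1 fell, Krt18 under JQ1. The 10 macrophage markers had 0 calls under either inhibitor, medians of 0.03 and 0.03, and sums of 4860 to 5135, 5167 to 5539 and 5046 to 5362. At an unadjusted p under 0.05, 2 were higher and 1 lower under I-BET151, and 2 were higher and 3 lower under JQ1. The smallest p values in this list were those of Cd68 (-0.28 and -0.45) and C1qb (0.27 and 0.35). The 8 mesothelial markers had sums of 2452 to 2512, 2492 to 2539 and 2181 to 2365. Of them 4 had a positive change under I-BET151 and 3 under JQ1. Upk3b fell under JQ1, and for the mean of both inhibitors 1 marker of this list rose and 1 fell. No marker was at 0, since the array's floor is 5. The part of these cell types in the gamma values was not tested.

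The arrays themselves were alike. Replicates correlated at 0.995 to 0.996 over all named genes on the log2 scale and arrays of different groups at 0.990 to 0.996. The pancreatic progenitor genes Pdx1 and Sox9 were well above the floor on every array, with Pdx1 at 228 to 330 and Sox9 at 1418 to 1650. Hexim1, a repressor of transcription elongation whose transcript is a common pharmacological readout for BET inhibitors, rose under both inhibitors (log2 changes 0.67 and 1.00, limma adjusted p = 0.0432 and 0.0143).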

How the data were processed

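The deposited values are linear whole-number intensities, 1 per gene and array. The submitters' processing notes name RMA without a version, which equalises the overall signal of the arrays. The steps from probes to genes are not given in the sources used here. Of 24972 rows, 24014 carried 1 symbol in the platform annotation, 0 carried several and 958 are unnamed here. Symbols were updated by Entrez ID through RefSeq (23921 found), and for 4 symbols with several rows the brightest row was kept. Limma 3.58.1 in R 4.3.3 was fitted to log2 intensity of all 24010 genes on all 6 arrays (lmFit, eBayes), with no pseudocount or filter, 3 residual degrees of freedom and a prior of 1.76. P-values were adjusted by Benjamini-Hochberg, and a gene was called under 0.05. The words "rose" and "fell" mark calls. Simulated data were used to check the fit. The number of arrays, 2 a group, limits the precision.

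Members and lists were chosen with earlier results of these data known. Named members were, by rule, any called, the 2 largest positive and 2 largest negative changes of each cluster for the mean of both inhibitors (the gamma cluster had no negative one), and all C-type genes; the other gamma, alpha and beta genes were named after their values were seen. Of the other lists, up to 4 called genes or, with none called, the 2 of smallest p were named, besides Ctcf, Rad21, Smchd1, Dnmt3b and Hexim1; Taf7, Slc25a2, Hdac3, Pdx1 and Sox9 were added later. The main fit did not pair arrays by replicate number. Deviations of same-numbered arrays had correlations of -0.016 to -0.040 over all genes, which cannot show whether pools shared a litter or day. No sequences are shown, as none of the members was in the promoter table used. Alternatives covered scaling, dim genes, a pseudocount of 16, rounding, the prior, a replicate block, the groups in the fit and leaving out arrays.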

Additional observations from a re-analysis of the deposited data

How the results depend on the processing

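Counts of called members changed with the setting, given here in the order I-BET151, JQ1 and their mean. From 0, 0 and 0 they went to 1, 1 and 3 after median centring of the arrays, to 1, 1 and 3 without the dimmest 25% of genes, and to 3, 4 and 6 without genes below the median intensity. The shares of all genes called in these fits were 2.22%, 5.79% and 7.24%, then 4.43%, 9.62% and 11.4%, then 11.8%, 19.7% and 22.3%. The members' own were at or below these, at 1.72%, 1.72% and 5.17%, then 2.13%, 2.13% and 6.38%, then 11.1%, 14.8% and 22.2%. The shares over all genes pool both directions, whereas every member called in these fits rose. Rises alone numbered 183, 664 and 881 of 24010 genes, then 226, 611 and 772 of 18007, then 595, 1043 and 1208 of 12005. The counts of called members were 0, 0 and 1 with a pseudocount of 16, 0, 1 and 2 with rounding dithered, and 0, 0 and 2 with the robust prior, against 2.28% to 8.18% of all genes. They stayed at 0 with the intensity trend, the replicate block (smallest adjusted p 0.183, 0.111 and 0.0947), only the groups of the contrast (not run for the mean of both), and with 1 array left out. With 1 array and the genes below the median intensity left out they ran from 0 to 3, 0 to 4 and 3 to 9 of 27, against 3.14% to 8.68%, 7.92% to 18.4% and 8.34% to 19.3% of all genes. In such a fit without CTRL 1, the changes of Pcdha3 (-0.82 for JQ1 and -0.74 for the mean) and Pcdhb8 (-0.56 and -0.50) were negative. Those of Pcdhga5 (1.57 and 1.56) were positive. The direct contrast of JQ1 against I-BET151 had 0 called members under every alternative run. Calls over all genes went from 272, 912 and 1181 to 0 with the replicate block or, where run, only the groups of the contrast, and to 1422, 2362 and 2675 without genes below the median intensity. Median centring gave 183 rises and 350 falls for I-BET151, where the uncentred values gave 63 and 209, and 664 rises and 727 falls for JQ1, where they gave 272 and 640. The cause of these differences was not tested.

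The gamma median stayed above 0 under every alternative run, at 0.30 to 0.59 for I-BET151, 0.16 to 0.49 for JQ1 and 0.24 to 0.55 for their mean, the highest without CTRL 2 and without genes below the median intensity. The alpha median turned to -0.24 under I-BET151 and -0.14 for the mean without the dimmest 25% of genes, which left 7 alpha rows, and ran from -0.060 (without CTRL 1) to 0.19 under I-BET151 with 1 array left out. Without genes below the median intensity 1 alpha row was left and no median was taken. The 5 beta rows left then had medians of -0.28 to 0.18 under I-BET151, -0.19 to 0.20 under JQ1 and -0.24 to 0.19 for the mean, without 1 array in turn; without I-BET151 2 the first was -0.13. With 2 arrays a group, the errors were largest for the alpha rows, with a median SE of 0.29.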
